A study of Mus musculus with 30 samples.

Results

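Hox genes encode transcription factors that carry positional identity along the body axis and the limbs. Here they were all gene symbols of the form Hox followed by the cluster letter a, b, c or d and a paralog number, which gave 39 genes of 26264 listed. Cluster A held 11 of them, cluster B 10, cluster C 9 and cluster D 9. The RNA came from the mouse tibialis anterior, a shin muscle. Both sexes were sampled without injury and 4, 7, 11 and 15 days after volumetric muscle loss, the surgical removal of part of the muscle, which made 10 groups with 3 libraries in each. Strain, genotype and age are not given in the labels used here. Whether the libraries of a group came from separate animals is not in the labels, so every p-value here refers to the spread among these libraries, which may be technical.

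In each cluster the Hox genes lie in a row, and the paralog number counts their position. Genes with low numbers act towards the head, and those with high numbers act towards the tail and at the far end of the limb. Genes with the same number in different clusters are paralogs with overlapping functions. In the embryonic limb, clusters A and D pattern the upper segment, the lower segment and the foot, cluster C is used in the hind limb, and adult cells of connective tissue and muscle keep part of this code. Hox proteins bind DNA with cofactors of the Pbx and Meis families, and the clusters are held silent by Polycomb complexes and kept active by MLL complexes.

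The libraries held between 13089999 and 57277336 counts. Totals were lowest at day 15, at 13089999 to 30024528, so that counts of rare Hox transcripts were least precise there. Levels are given as CPM, the count relative to a library size that was scaled by the trimmed mean of M-values (TMM), whose factor averaged 0.527 for uninjured libraries and 1.30, 1.19, 1.16 and 1.08 for the 4 days in turn. On this scale the median log2 fold change of all 17136 genes tested was 0.17, 0.24, 0.32 and 0.26 at the 4 days. With library size alone it was 1.47, 1.42, 1.46 and 1.30, so the zero line of every comparison with uninjured muscle depends on the scaling. The library labelled female day 11 replicate 3 had 0.109 CPM of Xist and 253 CPM summed over 4 Y-linked genes, against 266 to 1062 CPM of Xist in the other female libraries after injury, and was kept under its label. Female day 4 replicate 2 was the lowest of all libraries in mature fibre markers, and female day 7 replicate 3 stood apart in several Hox genes.

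In uninjured muscle Hoxc10 was by far the most abundant Hox transcript. This gene of the lumbar and hind limb region stood at 190.8 ± 31.0 CPM (SD, n = 6), and per kilobase of exon it had the highest mean level of the family, 99.9 CPM per kilobase. Hoxa10 followed at 12.6 CPM per kilobase and Hoxc9 at 11.9, and the next were Hoxa7 at 5.90, Hoxa11 at 5.33 and Hoxc4 at 4.74. The first 3 ranks were the same with the longest transcript as the length. Members of cluster A, with 28.9% ± 2.16 (SD, n = 6), and of cluster C, with 63.1% ± 2.60, made up nearly all Hox counts of uninjured muscle, while cluster B held 4.39% ± 0.916 and cluster D 3.61% ± 1.17. The markers of mature muscle fibres, among them the fast myosins and parvalbumin, were all detected and summed to 318264 to 472508 CPM.

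Of the 39 genes, 33 had enough counts to be tested. The other 6 were Hoxb1 with 4 counts over all 30 libraries, Hoxb13 with 0, Hoxc12 with 28, Hoxd1 with 18, Hoxd12 with 0 and Hoxd13 with 4. For the genes at 0 the limit set by a count of 0 is 3 read pairs, or 6 counts where both reads of a pair were counted, over all libraries. Hoxc13, Hoxd10 and Hoxd11 were among those tested although fewer than 3 uninjured libraries reached the filter's level. They entered through the injured groups, so their rises are described and not used as support.

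Day 4 was marked by falls, and the later days by a split within the family. With edgeR's quasi-likelihood test and Benjamini-Hochberg adjustment over all genes, 2 Hox genes were called higher and 18 lower at day 4, where 40.1% of all tested genes were called higher and 33% lower. At day 7, 13 were called higher and 7 lower, beside 41.6% and 29.9% of all genes. At day 11 the counts were 13 and 6, beside 42.7% and 29.7%, and at day 15 they were 14 and 6, beside 39.7% and 29.3%. Over the 29 tested genes with at least 3 uninjured libraries at the filter's level, a subset taken after values were seen, the counts were 0 and 18, 10 and 7, 11 and 6, and 13 and 6. Without female day 4 replicate 2 the day 4 calls were 15, of which 14 were lower, and without female day 11 replicate 3 the day 11 calls were 14, of which 9 were higher. The share of falls at day 4 was above that of all genes, while the shares at the later days were near or below the background. The median log2 fold change of the 33 genes was -0.66, 0.39, 0.53 and 0.53 at the 4 days. Relative to the median of all genes, 7 of 33 stood above it at day 4 and 20, 21 and 19 at days 7, 11 and 15. These counts were the same under TMM, relative log expression (RLE) scaling and library size alone. A change of scaling shifts all genes by nearly the same amount, so this sameness was fixed in advance and is no support.

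The direction against zero was not the same under the 3 scalings. With library size alone 16 Hox genes were called higher and 2 lower at day 4, 25 and 2 at day 7, 29 and 2 at day 11, and 25 and 3 at day 15. Hoxc10 and Hoxa13 were the 2 that were called lower at all 4 days under each of the 3 scalings. The day 7 rises rested in part on the library labelled female day 7 replicate 3: without it 5 genes were called higher (Hoxa4, Hoxb4, Hoxb8, Hoxd3 and Hoxd4) and 6 lower. Of these the Hoxa4 call was weak, with an edgeR adjusted p of 0.0495 at day 7 over all libraries. It ended when any 1 of 25 other libraries was left out, and the day 11 call of Hoxa4 ended with any 1 of 26. Without male day 7 replicate 2 the count of rises was 8, and without the 3 libraries named above together it was 6.

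**Figure D1:**
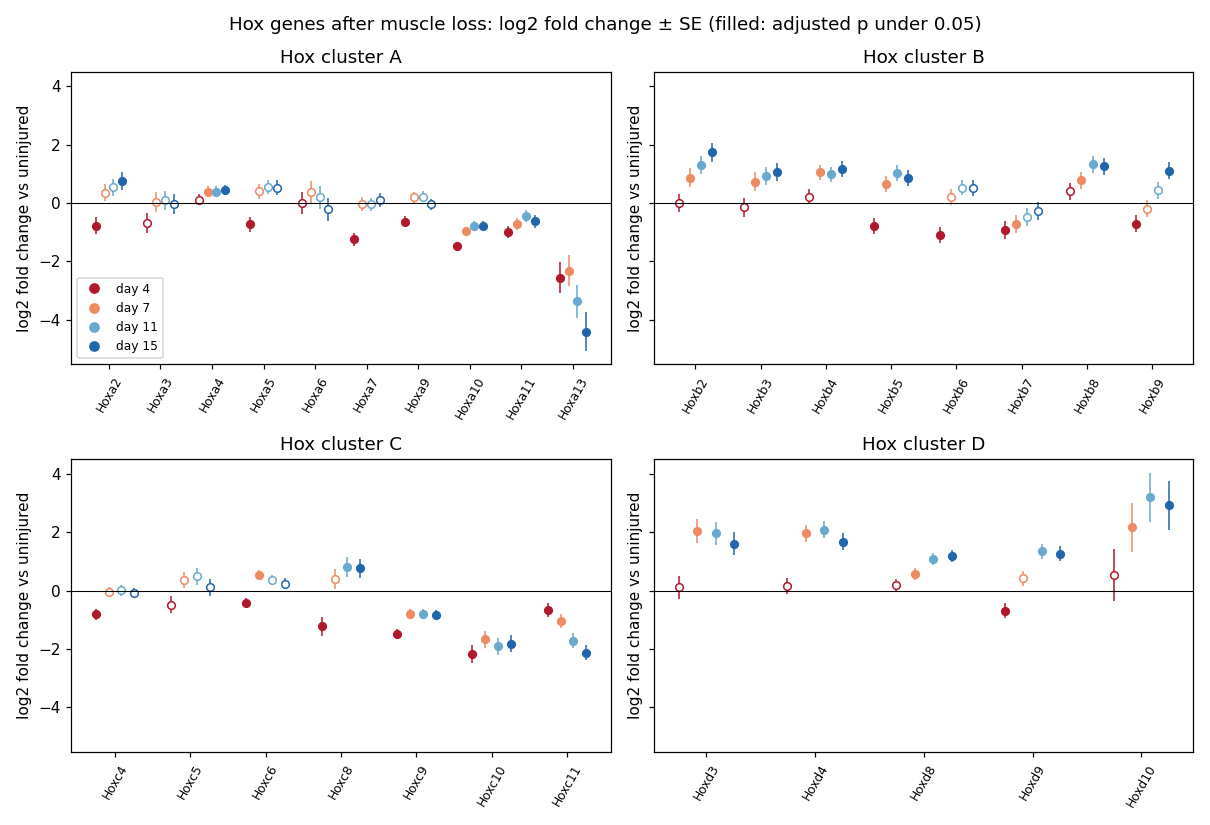
Log2 fold change (vertical axis, ± SE) against uninjured muscle for tested members of clusters A, B, C and D, with genes in order of paralog number and days 4, 7, 11 and 15 in colours; filled points have an adjusted p under 0.05 in edgeR, and Hoxc13 and Hoxd11 are left out because of their few counts. On TMM-scaled sizes Hoxa10, Hoxa11, Hoxa13, Hoxc9, Hoxc10 and Hoxc11 lie below 0 at all 4 days and the genes of cluster D lie mostly above it. With library size alone the falls of Hoxa10 and Hoxc9 change sign at days 7, 11 and 15. Those of Hoxa11 then change sign at all 4 days, and those of Hoxc11 at days 4 and 7.

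The genes that stayed low were the high paralog numbers of clusters A and C. In edgeR 6 genes were called lower at all 4 days: Hoxa10, Hoxa11, Hoxa13, Hoxc9, Hoxc10 and Hoxc11. They are 6 of the 8 tested genes with paralog numbers 9 to 13 in these clusters, the other two being Hoxa9, which was lower at day 4, and Hoxc13, which is close to undetected. None of the 11 tested genes of clusters A and C with paralog numbers 1 to 8 was called lower at day 7, 11 or 15, and at day 4 it was 6 of 11. Of all tested genes, 33%, 29.9%, 29.7% and 29.3% were called lower at the 4 days in turn. How many of them were called lower at all 4 days was not counted. The Hox calls are on TMM-scaled sizes. The day 11 call of Hoxa11 ended when any 1 of 19 libraries was left out, and the day 4 call of Hoxc11 without male uninjured replicate 3.

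Hoxc10 fell most in absolute level. Its libraries ranged over 155 to 242 CPM (median 188) uninjured, 19.8 to 56.3 (43.9) on day 4, 17.4 to 109 (56.3) on day 7, 32.6 to 77.1 (51.0) on day 11 and 39.4 to 67.7 (56.5) on day 15. No injured library reached the lowest uninjured library at any day, and the widest spread was at day 7. The log2 fold change was -2.18 ± 0.30 at day 4 (SE, edgeR adjusted p = 4.46e-07), a 4.52-fold lower level, and -1.66 ± 0.29, -1.91 ± 0.30 and -1.82 ± 0.30 at days 7, 11 and 15 (adjusted p = 2.02e-05, 3.22e-06 and 7.26e-06). Leaving out any library kept all 4 calls, and with library size alone Hoxc10 was still called lower at each day. A stretch of 166 exon bases, 8.70% of the Hoxc10 exons, is annotated as shared with Hoxc5, which had far fewer counts.

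Fibre genes fell beside it. The summed level of 10 mature muscle fibre markers had a median of 455201 CPM without injury and 49798, 83890, 70875 and 119242 CPM on the 4 days, and 9, 9, 8 and 8 of the 10 were called lower. At day 7 the library with the lowest Hoxc10, female replicate 3 at 17.4 CPM, was also the lowest in fibre markers at 21060 CPM. The library with the highest Hoxc10, female replicate 1 at 109 CPM, was the highest in fibre markers at 145619 CPM. In uninjured muscle neither extreme matched. Male replicate 3 had the highest Hoxc10, 242 CPM, and the lowest fibre sum, 318264 CPM. Male replicate 1 had the lowest Hoxc10, 155 CPM, and a fibre sum of 437403 CPM, above that of male replicate 3 alone. At day 4 both extremes matched, at day 11 only the highest and at day 15 only the lowest. Macrophage markers rose from a median of 56.2 CPM to 3245, 1262, 1243 and 694 CPM, with 9 of 9 called higher at each day, and markers of fibro-adipogenic progenitors and fibroblasts from 495 to 4746, 4358, 6912 and 4679 CPM. Of these 12 markers 8, 8, 11 and 11 were called higher and 2, 0, 0 and 0 lower. None of these markers was without counts at any time. The part of cell composition in the Hox changes was not tested, and in whole muscle fewer cells of a type and less RNA per cell cannot be told apart.

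Hoxa10, the cluster A paralog of Hoxc10 that shapes the upper limb segment and the lumbar region, was next in level. It was measured at 31.3 to 54.8 CPM (median 40.7) uninjured, 11.9 to 16.7 (15.1) on day 4, 16.97 to 28.4 (19.97) on day 7, 20.7 to 27.2 (24.0) on day 11 and 20.8 to 29.6 (23.5) on day 15. Uninjured and injured libraries did not overlap at any day. The fall was -1.47 ± 0.15 on the log2 scale at day 4 (edgeR adjusted p = 4.73e-09) and -0.97 ± 0.15, -0.78 ± 0.15 and -0.78 ± 0.15 later (adjusted p = 3.51e-06, 5.48e-05 and 6.3e-05). From day 4 to day 7 the gene rose by 0.50 (adjusted p = 0.0117), so its lowest level was at day 4. With library size alone its later values were 0.17, 0.36 and 0.26, above zero.

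Hoxc9, which in the embryo organises thoracic motor neurons, followed the same course. Its range was 23.6 to 31.7 CPM (median 29.5) uninjured, 6.42 to 13.9 (9.90) on day 4, 11.5 to 21.1 (17.6) on day 7, 13.4 to 19.2 (17.01) on day 11 and 10.9 to 21.2 (17.9) on day 15. The groups did not overlap at any day, and the log2 fold change was -1.48 ± 0.18, -0.80 ± 0.18, -0.80 ± 0.18 and -0.83 ± 0.18 (edgeR adjusted p = 6.26e-08, 0.000265, 0.000286 and 0.000207). With library size alone it was 0.33, 0.34 and 0.21 at days 7, 11 and 15.

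Hoxa11, needed for the lower leg and forearm segment, was lower by less. It lay at 8.97 to 14.1 CPM (median 12.8) uninjured, 4.85 to 7.42 (5.90) on day 4, 6.52 to 8.22 (7.42) on day 7, 5.23 to 13.2 (7.91) on day 11 and 5.68 to 12.4 (6.95) on day 15. At days 4 and 7 no injured library reached the uninjured ones, and at days 11 and 15 2 libraries each did. The log2 fold change was -1.003 ± 0.21 and -0.71 ± 0.21 at days 4 and 7 (edgeR adjusted p = 0.000122 and 0.0036), and -0.46 ± 0.21 and -0.63 ± 0.21 at days 11 and 15 (adjusted p = 0.0493 and 0.00933). The day 11 call was lost when any 1 of 19 libraries was left out, and with library size alone the gene was above zero at every day, at 0.30 to 0.68. An antisense gene, Hoxa11os, lies opposite 35.0% of the annotated Hoxa11 exon bases, and since the strand setting of the counting is not given, reads of the pair may be mixed. Hoxa11os itself was -1.40 ± 0.22 at day 4 (adjusted p = 4.67e-06) and -0.39, 0.01 and -0.14 later, not called.

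A pair of genes was lower at day 15 than at day 4. They were chosen after their values were seen. Hoxc11, which marks the hind limb, was at 5.67 to 11.7 CPM (median 7.39) uninjured, 4.47 to 6.40 (4.76) on day 4, 2.704 to 5.45 (3.53) on day 7, 1.19 to 3.65 (2.63) on day 11 and 1.23 to 2.92 (1.84) on day 15. Its libraries overlapped the uninjured ones at day 4 and at no later day. The log2 fold change went from -0.66 ± 0.24 at day 4 over -1.05 ± 0.24 and -1.71 ± 0.25 to -2.13 ± 0.26 at day 15 (edgeR adjusted p = 0.0167, 0.000482, 1.4e-06 and 1.19e-07). Between day 15 and day 4 the difference was -1.47 ± 0.25 (adjusted p = 3.93e-05). Without male uninjured replicate 3 the day 4 call ended, at an adjusted p of 0.0666, and with library size alone Hoxc11 was 0.64 at day 4 and was called lower at day 15 and not before.

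Hoxa13, the gene of the far limb end, was rare in this muscle and rarer after injury. Its range was 0.975 to 2.86 CPM (median 2.11) uninjured, 0.245 to 0.496 (0.297) on day 4, 0.0460 to 1.16 (0.207) on day 7, 0.0561 to 0.428 (0.182) on day 11 and 0 to 0.226 (0.0747) on day 15, from 288 counts over the 6 uninjured libraries to 15 counts over those of day 15. Injured libraries stayed below all uninjured ones except for 1 at day 7. The fitted log2 fold change was -2.57 ± 0.53, -2.32 ± 0.53, -3.37 ± 0.57 and -4.41 ± 0.66 (edgeR adjusted p = 0.000121, 0.000428, 1.18e-05 and 2.37e-06), and day 15 was lower than day 4 by a log2 difference of -1.84 ± 0.67 (adjusted p = 0.0243). That last call ended without female day 15 replicate 1 or male day 15 replicate 1, with edgeR adjusted p up to 0.0576, and between days 4 and 7 Hoxa13 was not called (0.25 ± 0.53). Its cluster C paralog Hoxc13 had 2 counts in uninjured muscle, none of them in females, and 57 at day 4, a ratio of 9.88 in counts per scaled library size (95% counting interval 1.63 to 404, taking 2 counts as 1 read pair). It was called higher at days 4 and 7, with at most 0.312 CPM in any library.

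The sequences before the starts of Hoxa10 and Hoxa13 are shown because these genes stayed low and are in the RefSeq promoter table. They hold the 250 bases before the transcript start on GRCm38.p6, given 5′ to 3′ on the gene's strand with matches in capitals to the letters CCAAT and TATAAA on either strand, so that ATTGG and TTTATA also count. Hoxa10 reads from chr6:52234940-52235189, minus strand, with 20 CpG dinucleotides, and Hoxa13 from chr6:52260881-52261130, minus strand, with 35.
Hoxa10: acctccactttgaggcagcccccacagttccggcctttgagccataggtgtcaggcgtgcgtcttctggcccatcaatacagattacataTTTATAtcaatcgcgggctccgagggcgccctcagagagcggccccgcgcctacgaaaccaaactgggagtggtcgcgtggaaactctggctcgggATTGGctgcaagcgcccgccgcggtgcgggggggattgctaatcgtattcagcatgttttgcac
Hoxa13: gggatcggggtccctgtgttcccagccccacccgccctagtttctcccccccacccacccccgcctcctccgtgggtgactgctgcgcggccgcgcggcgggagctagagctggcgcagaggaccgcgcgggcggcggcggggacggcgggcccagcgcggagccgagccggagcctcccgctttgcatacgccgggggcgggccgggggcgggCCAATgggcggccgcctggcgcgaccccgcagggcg
The Hoxa10 window had 1 match to each motif, both on the other strand, TATAAA at position -160 and CCAAT at -64. The Hoxa13 window had CCAAT at -36. Positions give the first base of the match as printed, whichever strand it is on, with -1 the last base before the start. A second Hoxa10 start in the table had 7 CpG and no match to either motif. Of the 39 Hox genes 22 were in the table, with 24 promoters, and Hoxc10 was not among them. CCAAT was found in 58.3% of the 24 Hox promoters and in 33.8% of all 32851 promoters of that length, TATAAA in 16.7% and 12.4%, and the median number of CpG was 12.5 and 6. The Hox and Meis letters TGATNNAT and TGACAG were searched as well and lay in 16.7% and 8.33% of the Hox promoters, against 7.68% and 15.9% of all. None of the windows printed here held either of them.

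**Figure D2:**
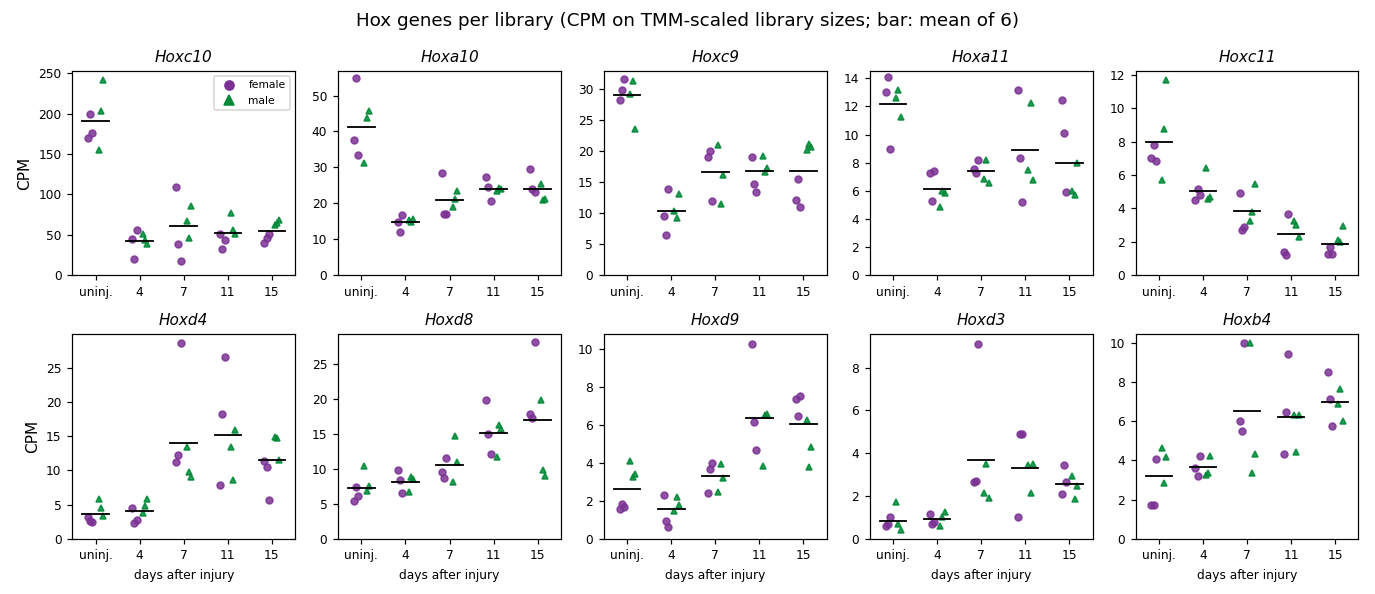
CPM on TMM-scaled library sizes (vertical axes) in each of 30 libraries against time (uninjured and days 4, 7, 11 and 15) for 5 Hox genes that were called lower at all 4 days (top) and 5 that were called higher at days 11 and 15 (bottom); circles are females, triangles males and bars the mean of 6. No injured library reaches the lowest uninjured library of Hoxc10, Hoxa10 or Hoxc9, while 1 female library at day 7 stands apart in Hoxd4 and Hoxd3. With library size alone Hoxa10, Hoxc9 and Hoxa11 were above zero at days 7, 11 and 15. Hoxa11 was then also above zero at day 4, and Hoxc11 at days 4 and 7.

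Cluster D moved the other way. Hoxd3, Hoxd4, Hoxd8 and Hoxd9 were the 4 genes of the cluster that were also measured well in uninjured muscle. Of them 3, 4 and 4 were called higher at days 7, 11 and 15, beside 41.6%, 42.7% and 39.7% of all genes. At day 4 none was higher and 1 was lower, beside 40.1% and 33% of all genes. The median log2 fold change of the 4 genes was 0.14, 1.26, 1.66 and 1.44 at the 4 days. From day 4 to day 7 Hoxd3, Hoxd4 and Hoxd9 rose (1.94, 1.80 and 1.11 in log2, edgeR adjusted p = 0.000747, 0.000154 and 0.00232), while Hoxd8 was not called (0.38, adjusted p = 0.147). With library size alone Hoxd3, Hoxd4, Hoxd8, Hoxd9 and Hoxd10 were above zero at every day. The median of all genes was then itself 1.47, 1.42, 1.46 and 1.30 at the 4 days, so this is no support for a rise.

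Hoxd4 acts in the hindbrain and neck of the embryo. It was measured at 2.37 to 5.80 CPM (median 3.20) uninjured, 2.32 to 5.83 (4.18) on day 4, 9.08 to 28.6 (11.7) on day 7, 7.86 to 26.6 (14.7) on day 11 and 5.67 to 14.8 (11.5) on day 15. All injured libraries of days 7 and 11 lay above the uninjured ones, and at day 15 a single one did not. The log2 fold change was 0.17 ± 0.28 at day 4 (edgeR adjusted p = 0.591) and 1.97 ± 0.29, 2.10 ± 0.29 and 1.69 ± 0.29 at days 7, 11 and 15 (adjusted p = 1.45e-06, 5.41e-07 and 1.26e-05). Day 7 was 3.47-fold higher than day 4 (adjusted p = 0.000154). Leaving out female day 7 replicate 3, its highest library with 28.6 CPM, gave 1.62 at day 7, still called.

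Its neighbour Hoxd3 was at 0.420 to 1.73 CPM (median 0.674) uninjured, 0.571 to 1.26 (0.900) on day 4, 1.89 to 9.12 (2.68) on day 7, 1.01 to 4.91 (3.48) on day 11 and 1.85 to 3.44 (2.56) on day 15. The groups did not overlap at days 7 and 15. It changed by 2.05 ± 0.40, 1.97 ± 0.40 and 1.61 ± 0.40 in log2 at days 7, 11 and 15 (edgeR adjusted p = 7.06e-05, 0.000106 and 0.00102), after 0.11 ± 0.40 at day 4. Hoxd3 and Hoxd4 share 388 annotated exon bases, 9.26% of one and 13.2% of the other, and a further gene annotated on the same strand, Gm28230, spans 53.1% and 39.1% of their exon bases, so their counts may not be independent.

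Hoxd8 had the highest uninjured level per kilobase in cluster D, 2.64 CPM per kilobase. It lay at 5.38 to 10.4 CPM (median 7.05) uninjured, 6.57 to 9.82 (8.45) on day 4, 8.05 to 14.7 (10.2) on day 7, 11.7 to 19.9 (15.3) on day 11 and 9.04 to 28.1 (17.6) on day 15. The day 11 libraries were all above the uninjured ones, and at day 15 the spread was widest, with 2 male libraries below the highest uninjured one. In log2 the change was 0.56 ± 0.21, 1.07 ± 0.21 and 1.199 ± 0.21 (edgeR adjusted p = 0.0181, 5.71e-05 and 1.69e-05). The day 7 call ended without female day 7 replicate 3 or male day 7 replicate 2, with adjusted p up to 0.0822.

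Hoxd9 was low early and high late. The range was 1.56 to 4.08 CPM (median 2.54) uninjured, 0.632 to 2.29 (1.63) on day 4, 2.42 to 4.01 (3.45) on day 7, 3.82 to 10.3 (6.36) on day 11 and 3.79 to 7.53 (6.37) on day 15, with overlap against uninjured muscle at every day. It was lower at day 4 at -0.68 ± 0.26 (edgeR adjusted p = 0.0217), not called at day 7 at 0.43 ± 0.26 (adjusted p = 0.142), and higher at days 11 and 15 at 1.36 ± 0.26 and 1.27 ± 0.26 (adjusted p = 5.49e-05 and 0.000136). The day 4 call was lost without female day 4 replicate 2 or replicate 3, and with library size alone the day 4 value was 0.62. Against day 4, day 15 was 3.88-fold higher (adjusted p = 2.11e-06).

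Hoxd10, chosen after its values were seen, had 16 counts before injury and 181, 228 and 132 at days 7, 11 and 15. In counts per scaled library size this is a ratio of 5.69 at day 7 (95% counting interval 2.77 to 13.6), 9.19 at day 11 (4.51 to 21.8) and 7.95 at day 15 (3.81 to 19.2), which covers counting error only. Of the day 7 counts 110 were in female day 7 replicate 3, and without that library the fitted log2 fold change went from 2.18 to 1.15 (edgeR adjusted p = 0.235), which ended the call. It also ended without female uninjured replicate 2, male uninjured replicate 3 or male day 7 replicate 2. Hoxd11 had 12 counts in uninjured muscle, all in males, and 9, 43, 45 and 24 later, and was not called at any day. Hoxd13, the cluster D gene of the digits, was at 4 counts in all.

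The promoters of Hoxd4 and Hoxd8 are printed as the counterpart of those above, from genes that rose. They come from chr2:74721728-74721977 and chr2:74704365-74704614 of GRCm38.p6, both on the plus strand, with 3 and 6 CpG.
Hoxd4: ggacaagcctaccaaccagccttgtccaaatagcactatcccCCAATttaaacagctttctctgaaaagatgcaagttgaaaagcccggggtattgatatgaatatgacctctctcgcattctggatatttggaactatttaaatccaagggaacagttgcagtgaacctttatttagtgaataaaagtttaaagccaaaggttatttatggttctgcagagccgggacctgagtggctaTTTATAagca
Hoxd8: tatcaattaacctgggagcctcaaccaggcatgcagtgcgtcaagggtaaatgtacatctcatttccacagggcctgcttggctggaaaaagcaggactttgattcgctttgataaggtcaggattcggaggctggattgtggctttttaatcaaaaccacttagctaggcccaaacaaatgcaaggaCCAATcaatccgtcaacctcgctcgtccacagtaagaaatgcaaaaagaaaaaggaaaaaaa
In the Hoxd4 window CCAAT was at -208 and TATAAA, on the other strand, at -10. In the Hoxd8 window CCAAT was at -62. Both windows held fewer CpG than the Hox median of 12.5, and those of Hoxa10 and Hoxa13 more, which describes 4 windows and no more. Other windows did not keep to this contrast. The second Hoxa10 start had 7 CpG, and Hoxa11, which also stayed low, had 13. Of other genes called higher at a later day, Hoxb4 had 14, Hoxd9 13 and Hoxd10 20, while Hoxb8 and Hoxd3 had 12 each and Hoxa2 had 6. A link between CpG number and the course after injury was not tested.

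Cluster B also rose after day 4, from low levels. Of its 8 tested genes 5, 5 and 6 were called higher at days 7, 11 and 15, beside 41.6%, 42.7% and 39.7% of all genes. At day 4 none was higher and 4 were lower, beside 40.1% and 33% of all genes. The median log2 fold change was -0.43, 0.70, 0.96 and 1.09. The genes that rose at all 3 later days were Hoxb2, Hoxb3, Hoxb4, Hoxb5 and Hoxb8.

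Hoxb4, a gene known from blood stem cell expansion, was at 1.71 to 4.65 CPM (median 3.47) uninjured, 3.19 to 4.23 (3.49) on day 4, 3.37 to 10.02 (5.78) on day 7, 4.33 to 9.43 (6.32) on day 11 and 5.74 to 8.51 (7.01) on day 15. It was 0.22 ± 0.26 at day 4 (edgeR adjusted p = 0.461) and 1.05 ± 0.27, 0.99 ± 0.27 and 1.16 ± 0.27 later (adjusted p = 0.00111, 0.00193 and 0.000494). The libraries stopped overlapping with uninjured muscle at day 15. The lowest uninjured values, 1.75 and 1.71 CPM, were both in female libraries.

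Hoxb2 and Hoxb3 pattern the hindbrain. Hoxb2 ranged over 0.250 to 1.10 CPM (median 0.606) uninjured, 0.355 to 0.847 (0.703) on day 4, 0.782 to 1.76 (1.17) on day 7, 1.04 to 2.30 (1.51) on day 11 and 1.46 to 3.27 (2.07) on day 15. Its log2 fold change was 0.87 ± 0.31, 1.30 ± 0.31 and 1.74 ± 0.31 at days 7, 11 and 15 (edgeR adjusted p = 0.0146, 0.000614 and 3.04e-05), and without female day 7 replicate 3 the day 7 call ended. Hoxb3 ranged over 1.29 to 4.62 CPM (median 3.46) uninjured, 2.09 to 3.82 (2.54) on day 4, 3.57 to 7.45 (4.86) on day 7, 2.84 to 12.4 (4.98) on day 11 and 4.93 to 8.19 (6.74) on day 15. The values were 0.73 ± 0.32, 0.93 ± 0.32 and 1.07 ± 0.32 (edgeR adjusted p = 0.0421, 0.0112 and 0.00484). Both genes were free of overlap with uninjured muscle at day 15 and overlapped at days 7 and 11. The day 7 call of Hoxb3 was lost when any 1 of 11 libraries was left out, and its day 11 call without female day 11 replicate 3, at an adjusted p of 0.168. The antisense gene Hoxb3os lies opposite 52.9% of the annotated Hoxb3 exon bases and 27.3% of those of Hoxb2, and was itself at 0.0931 to 0.461 CPM in the means of the 5 times.

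Hoxb8, known for keeping myeloid progenitors dividing when forced on, was at 0.583 to 1.98 CPM (median 1.04) uninjured, 0.982 to 2.19 (1.44) on day 4, 1.45 to 2.13 (1.96) on day 7, 1.69 to 5.37 (2.48) on day 11 and 2.19 to 2.96 (2.81) on day 15. The change in log2 was 0.77 ± 0.29, 1.33 ± 0.29 and 1.26 ± 0.30 at days 7, 11 and 15 (edgeR adjusted p = 0.0208, 0.000261 and 0.000569). At day 15 every injured library was above the highest uninjured one. The day 7 call ended without female uninjured replicate 2 or male uninjured replicate 1. The other cluster B genes, chosen after their values were seen, did not share a course. Hoxb5 was lower at day 4 (-0.79, adjusted p = 0.0137) and higher at days 7 to 15 (0.66 to 1.02), Hoxb9 was lower at day 4 and higher at day 15 (-0.72 and 1.11), Hoxb7 was lower at days 4 and 7 (-0.93 and -0.73), and Hoxb6 was lower at day 4 alone (-1.08). Leaving out any 1 of 8 libraries ended the day 7 call of Hoxb5, any 1 of 8 that of Hoxb7, and any 1 of 5 the day 4 call of Hoxb9, with edgeR adjusted p up to 0.129, 0.102 and 0.171.

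A further set was low at day 4 and was not called lower at any later day. Hoxa5, Hoxa7, Hoxa9, Hoxb6 and Hoxc4 were called lower at day 4 and at no later day, and Hoxa2, Hoxb5, Hoxb9, Hoxc6, Hoxc8 and Hoxd9 were called lower at day 4 and higher at 1 or more later days. For all 11 of these genes the log2 fold change at day 4 had the opposite sign with library size alone, from 0.06 for Hoxa7 to 0.88 for Hoxc6. Of all tested genes 33% were called lower at day 4. How many of those took either course later was not counted, so the courses cannot be called particular to Hox genes.

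Hoxa7, the most abundant of them per kilobase, was at 14.0 to 19.7 CPM (median 17.1) uninjured, 5.99 to 7.94 (7.22) on day 4, 10.4 to 30.2 (15.3) on day 7, 10.4 to 26.9 (15.8) on day 11 and 14.6 to 26.4 (16.9) on day 15. At day 4 all libraries were below the uninjured ones, and from day 7 the groups overlapped. Its log2 fold change was -1.24 ± 0.23 at day 4 (edgeR adjusted p = 3.44e-05) and -0.04, -0.05 and 0.11 later, and day 7 exceeded day 4 by 1.21 ± 0.23 (adjusted p = 0.000592). Hoxa9, known for its part in blood progenitors and leukaemia, lay at 19.7 to 23.4 CPM (median 21.3) uninjured, 12.1 to 15.3 (13.6) on day 4, 19.4 to 40.4 (20.97) on day 7, 16.3 to 40.9 (23.7) on day 11 and 12.4 to 24.5 (21.6) on day 15. It had the same pattern, no overlap at day 4 and overlap later, with 1 library each at days 7 and 11 far above the rest. The fall at day 4 was -0.64 ± 0.19 in log2 (edgeR adjusted p = 0.00407), and the rise to day 7 was 0.84 ± 0.19 (adjusted p = 0.00208).

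Hoxc8, a gene of the lower thoracic region, went from low to high. Its range was 4.66 to 8.95 CPM (median 6.25) uninjured, 1.77 to 4.06 (2.37) on day 4, 2.69 to 15.5 (7.71) on day 7, 7.71 to 15.9 (11.3) on day 11 and 8.27 to 13.2 (11.0) on day 15. All day 4 libraries were below the uninjured ones, and at day 7 the libraries split, with 3 at 2.69 to 4.19 CPM and 3 at 11.2 to 15.5 CPM. Hoxc8 was -1.22 ± 0.33 in log2 at day 4 (edgeR adjusted p = 0.00202), 0.40 ± 0.33 at day 7, not called, and 0.81 ± 0.33 and 0.77 ± 0.33 at days 11 and 15 (adjusted p = 0.0295 and 0.0413). The day 11 call was lost when any 1 of 5 libraries was left out, and the day 15 call with any 1 of 17, with adjusted p up to 0.0934 and 0.0956. Among the others, chosen after their values were seen, Hoxb6 was -1.08 ± 0.27, Hoxc4 -0.81 ± 0.17 and Hoxa5 -0.73 ± 0.25 in log2 at day 4, each with no overlap (edgeR adjusted p = 0.00106, 0.000179 and 0.0115). Hoxc6 and Hoxa2 were -0.42 ± 0.18 and -0.78 ± 0.30 at day 4 (adjusted p = 0.04 and 0.0223) and overlapped with uninjured muscle. These calls ended when any 1 of 8 or any 1 of 3 libraries was left out, with edgeR adjusted p up to 0.0855 and 0.0666.

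**Figure D3:**
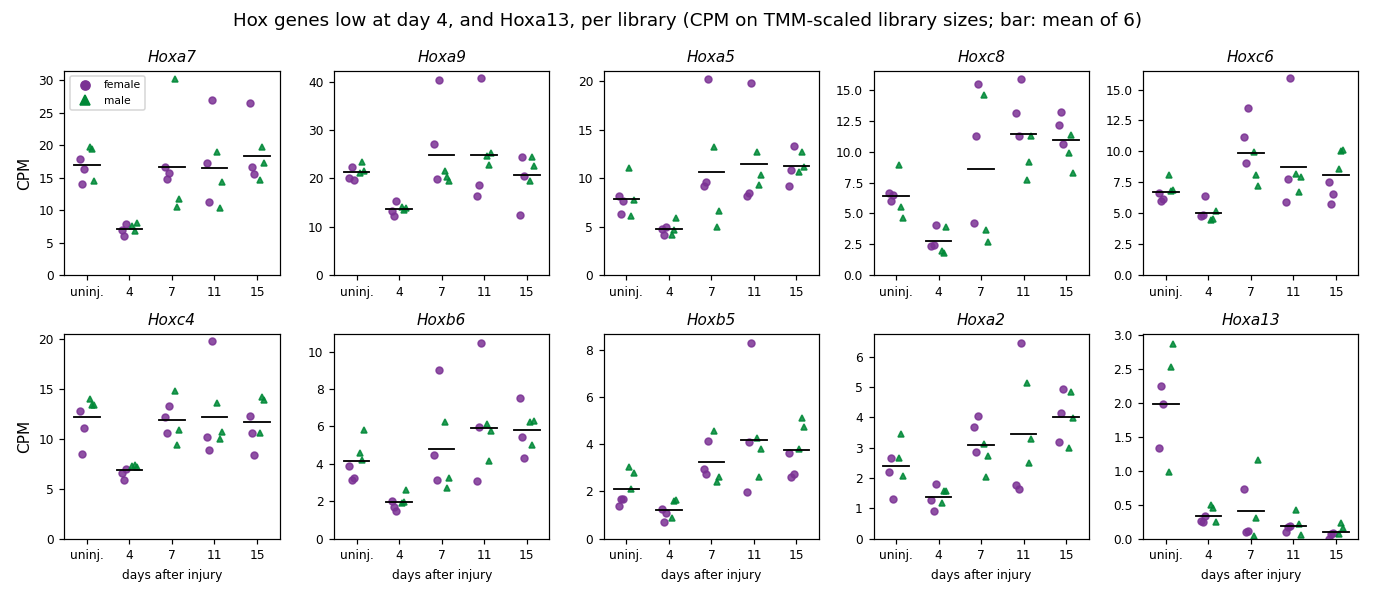
CPM on TMM-scaled library sizes (vertical axes) in each of 30 libraries against time (uninjured and days 4, 7, 11 and 15) for Hoxa7, Hoxa9, Hoxa5, Hoxc8, Hoxc6, Hoxc4, Hoxb6, Hoxb5, Hoxa2 and, for contrast, Hoxa13; circles are females, triangles males and bars the mean of 6. Hoxa7, Hoxa9, Hoxa5, Hoxc8, Hoxc4 and Hoxb6 have all day 4 libraries below the uninjured ones and overlap with them later, while Hoxa13 stays low; with library size alone the day 4 values of the first 9 genes were above zero and that of Hoxa13 was below it.

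The recovery fell between days 4 and 7. In edgeR 18 Hox genes rose from day 4 to day 7 and none fell, beside 18.5% of all tested genes called higher and 16.7% called lower. Between days 4 and 15, 21 were higher and 2 lower, Hoxa13 and Hoxc11, beside 25.1% and 27%. Besides the cluster D genes, the largest differences from day 4 to day 7 were in Hoxc8 at 1.62 ± 0.33, Hoxb5 at 1.44 ± 0.27 and Hoxb6 at 1.29 ± 0.27 (adjusted p = 0.00103, 0.000568 and 0.00119).

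From day 7 to day 11 edgeR called 0 Hox genes and 0.0584% of all genes, with 4 Hox genes (Hoxb9, Hoxc11, Hoxd8 and Hoxd9) at an unadjusted p under 0.05 and a lowest adjusted p of 0.189. DESeq2 called 1, Hoxd9 at 0.93 (adjusted p = 0.0476). Without the library labelled female day 11 replicate 3, edgeR called 1, Hoxc11 at -0.99 (adjusted p = 0.0495). From day 11 to day 15 edgeR called 0 Hox genes, beside 4.24% of all genes, with Hoxb9 alone at an unadjusted p under 0.05 and a lowest adjusted p of 0.184, and DESeq2 called 0.

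By cluster and paralog number the calls were counted over the 29 genes that reached the filter's level in at least 3 uninjured libraries. Members are not replicates, so these counts carry no test, and the shares of all genes are those given with the first counts above. In cluster A, of 10 genes, 0, 1, 1 and 2 were higher and 7, 3, 3 and 3 lower at days 4, 7, 11 and 15, with medians of -0.75, 0.11, 0.15 and -0.05 in log2. In cluster C, of 7, they were 0, 1, 1 and 1 higher and 6, 3, 3 and 3 lower, with medians of -0.81, -0.03, 0.01 and -0.07. Clusters B and D together, of 12, had 0, 8, 9 and 10 higher and 5, 1, 0 and 0 lower. Falls past day 7 were thus all in clusters A and C.

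By paralog number, the 5 genes numbered 1 to 3 had 3, 3 and 4 rises at days 7, 11 and 15 and no fall there. The 15 numbered 4 to 8 had 8 falls at day 4 and 7 rises at each later day, with 1, 0 and 0 falls. The 9 numbered 9 to 13 had 9 falls at day 4 and 6 at each later day, with 0, 1 and 2 rises, which were those of Hoxd9 at days 11 and 15 and Hoxb9 at day 15. The paralogs numbered 8 (Hoxb8, Hoxc8 and Hoxd8), picked out by these calls, were all called higher at days 11 and 15, beside 42.7% and 39.7% of all genes. The Hoxc8 calls were weak and ended when any 1 of 5 libraries (day 11) or any 1 of 17 (day 15) was left out.

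The make-up of the Hox transcript pool shifted with these changes, and shares do not depend on the scaling of the libraries. Hoxc10 made up a median of 47.3% of all Hox counts without injury (lowest 40.3%, highest 52.3%), and 26.6%, 21.6%, 19.1% and 20.6% on the 4 days in turn. Its highest share in an injured library, 33.0% at day 7, was below the lowest uninjured one, and its lowest, 5.997%, was in female day 7 replicate 3. The summed level of all Hox genes had medians of 396, 168, 278, 266 and 277 CPM in time order.

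Removing Hoxc10 left part of the shift. Of the remaining Hox counts, cluster D held a median of 6.28% in uninjured muscle and 12.7%, 14.4%, 18.4% and 17.8% later, cluster B rose from 8.40% to 14.1% at day 15, and cluster A went from 54.5% to 45.7%. Cluster C went from 30.5% to 23.2%. Paralogs 9 to 13 went from 54.6% to 35.4%, and at day 15 their highest library, 39.1%, was below the lowest uninjured one, 46.5%. These are shares of counts, in which longer transcripts weigh more, and a share can also grow when other genes fall. The median summed level of all Hox genes, Hoxc10 included, went from 396 CPM uninjured to 168 CPM at day 4. At that day none of the 4 cluster D genes measured well in uninjured muscle was called higher, with a median log2 fold change of 0.14.

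**Figure D4:**
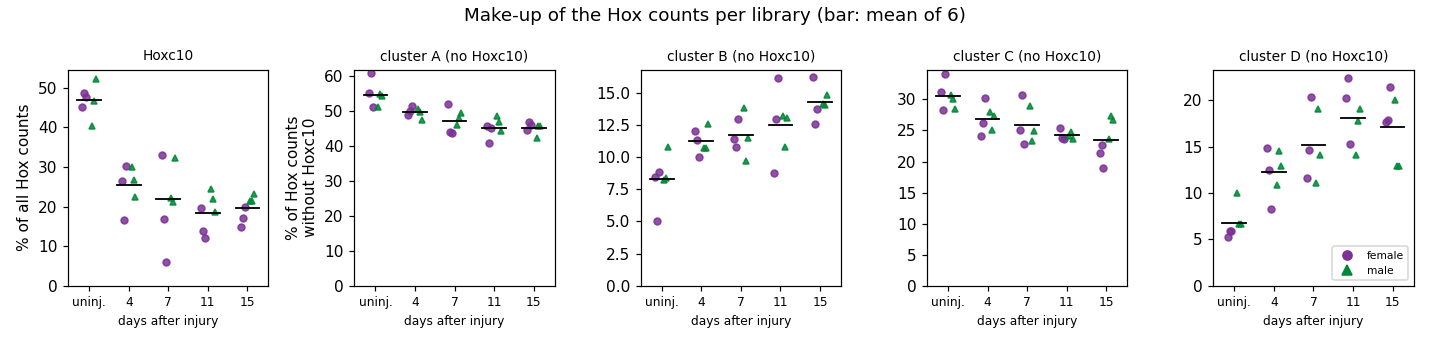
Share of Hox counts in percent (vertical axes) against time (uninjured and days 4, 7, 11 and 15), with 1 point per library: Hoxc10 as a share of all Hox counts, and clusters A, B, C and D as shares of Hox counts without Hoxc10; bars are the mean of 6. The Hoxc10 share is 40.3% to 52.3% in uninjured muscle and at most 33.0% after injury, and cluster D goes from a median of 6.28% to 17.8% at day 15.

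Neither comparison of the sexes gave a call among Hox genes. In uninjured muscle edgeR called 0 of 33 between females and males, beside 0.642% of all genes, with 2, Hoxd9 among them, at an unadjusted p under 0.05 and a lowest adjusted p of 0.213. DESeq2 called 0. Hoxd9 was at 1.56 to 1.83 CPM in the 3 female and 3.25 to 4.08 CPM in the 3 male uninjured libraries, without overlap, a log2 difference of -1.08 (female minus male) that did not pass the adjustment. A joint edgeR test of the sex difference in the response over the 4 days also called 0, beside 0.035% of all genes, with Hoxd4 and Hoxd9 at an unadjusted p under 0.05 and a lowest adjusted p of 0.791, and DESeq2 called 0. The library whose sex-linked genes go against its label is among the females of this test.

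Within groups the Hox genes varied together to some degree. After subtracting each group's mean from log2 CPM, the median Pearson correlation over the 30 libraries was 0.290 for the 84 pairs within a cluster and 0.133 for the 267 pairs between clusters, among the 27 members with a mean of at least 1 CPM. For all tested genes in the same range of mean level it was 0.001. By cluster the median was 0.213 in A, 0.356 in B, 0.313 in C and 0.130 in D, the last no higher than between clusters. The most alike pair was Hoxa7 and Hoxc4 at 0.83, and the least alike were Hoxc5 and Hoxd8 at -0.65. The neighbours Hoxd3 and Hoxd4, which share annotated exon bases, were at 0.76. Hoxc10 was closest to Hoxa4 at 0.62, Hoxa10 at 0.61 and Hoxc9 at 0.58. The libraries share their depth and composition across genes, so these values describe the libraries and carry no test.

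Calls among the cofactors with which Hox proteins bind DNA fell on both sides on TMM-scaled sizes. Of 9 Pbx, Meis and Pknox genes, edgeR called 5, 5, 5 and 3 higher and 2, 1, 1 and 1 lower at days 4, 7, 11 and 15, where all genes had 40.1%, 41.6%, 42.7% and 39.7% higher and 33%, 29.9%, 29.7% and 29.3% lower. Meis3 had a mean of 2.36 ± 0.962 CPM (SD, n = 6) in uninjured muscle and 8.27, 27.1, 25.9 and 17.2 CPM later, with a log2 fold change of 3.50 ± 0.36 at day 7 (adjusted p = 7.64e-09). Pknox2 went from 67.1 ± 21.5 to 21.2 CPM at day 4 (-1.63 ± 0.16, edgeR adjusted p = 1.34e-09) and stayed called lower at all days. Meis1 was not called at any day, with log2 fold changes of -0.25 to 0.28.

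Of 12 listed noncoding genes inside the Hox clusters 10 were tested, and edgeR called 2, 4, 6 and 5 higher and 2, 0, 0 and 0 lower at the 4 days, beside the same shares of all genes. Hotairm1, a long noncoding RNA of cluster A, went from 1.19 ± 0.646 CPM (SD, n = 6) to 4.70 CPM at day 15 (1.98 ± 0.33, adjusted p = 1.17e-05). Hotair, transcribed from cluster C between Hoxc11 and Hoxc12, was 0.83 ± 0.36, 1.25 ± 0.36 and 1.24 ± 0.36 at days 4, 7 and 11 (edgeR adjusted p = 0.0388, 0.00341 and 0.00342), higher while Hoxc11 was lower.

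Of 23 Polycomb genes, 9, 8, 10 and 9 were called higher and 7, 7, 6 and 7 lower at the 4 days, which is near the shares of all genes, 40.1% higher and 33% lower at day 4 and 39.7% and 29.3% at day 15. Pcgf2, a subunit of Polycomb complex PRC1, went from 4.06 ± 0.947 CPM (SD, n = 6) to 54.5 CPM at day 11 (3.72 ± 0.27, edgeR adjusted p = 6.99e-11), while Cbx7, a chromodomain subunit of the same complex, went from 54.4 ± 3.13 to 17.8 CPM at day 4 (-1.62 ± 0.23, adjusted p = 7.41e-07). The methyltransferase Ezh1 was -1.04 ± 0.17 and its paralog Ezh2 1.36 ± 0.21 at day 4 (edgeR adjusted p = 4.63e-06 and 2.99e-06). Of 12 genes of MLL complexes and H3K27 demethylases, 2, 4, 3 and 4 were higher and 2, 3, 4 and 3 lower, near or below the shares of all genes, and the methyltransferase Kmt2a was 0.93 ± 0.19 at day 15 (adjusted p = 0.00012).

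Of 17 other regulators of limb identity tested, 6, 8, 9 and 9 were called higher and 5, 3, 5 and 5 lower by edgeR, beside 40.1%, 41.6%, 42.7% and 39.7% of all genes higher and 33%, 29.9%, 29.7% and 29.3% lower. Tbx15, a T-box factor of glycolytic muscle fibres, went from 498 ± 114 CPM (SD, n = 6) to 110.1 CPM at day 4 (-2.18 ± 0.24, adjusted p = 1.24e-08), and Lbx1, a factor of migrating limb muscle precursors, was -2.28 ± 0.28 (adjusted p = 6.48e-08). Prrx2, a mesenchymal homeobox gene, went from 0.787 ± 0.316 to 21.3 CPM at day 11 (4.73 ± 0.34, edgeR adjusted p = 7.66e-11), and the hind limb gene Pitx1 was 2.04 ± 0.39 at day 11 (adjusted p = 6.02e-05). Of 11 homeobox genes outside the Hox clusters, 1 was tested, Gbx2, which was lower at days 11 and 15.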

How the data were processed

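RNA from tibialis anterior muscle was sequenced in 30 libraries, and the authors deposited 1 table of counts per gene. STAR, edgeR and the mm39 build are named per the submitters' processing notes, while for the counting program, its strand setting and the annotation the sources used here give nothing. Of counts between 1 and 20, 65.5% to 77.5% were even, so both reads of a pair may have been counted. No column of per-sample values was left out.

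The deposited counts were fitted in edgeR 4.0.16 (R 4.3.3) with TMM factors, edgeR's expression filter over the 10 groups, which kept 17136 of 26264 genes, 1 mean per group of sex and time and quasi-likelihood tests. Contrasts averaged both sexes, p-values were adjusted by Benjamini-Hochberg over all tested genes, and calls were made under 0.05. The fit was tested on simulated data in which few genes changed, evenly up and down at day 4. The scaled library sizes were built in, so that test does not cover the choice of scaling. CPM used TMM-scaled library sizes. Exon lengths and overlaps came from GENCODE M21 on GRCm38 and promoters from RefSeq on GRCm38.p6, matched by symbol, and no coordinate was carried over to mm39.

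Members and gene lists were chosen with earlier results of these data known. Genes described in full were, per cluster, the 3 called members with the largest log2 fold change at the day with most calls and a mean CPM of at least 1, the 2 with the highest mean CPM, and Hoxa9, Hoxa10, Hoxa11 and Hoxc10. Alternatives were RLE size factors, library size alone, 2 other filters, DESeq2 1.42.0, a fit of the compared groups, a replicate block, halved counts and leaving out each library. Thinning to the smallest library and leaving out 3 libraries together were added after seeing the data. The replicates of a group differed by more than sampling noise. Values of 1 tested Hox gene and 1 cofactor gene are not reported here, though counts over all members include them.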

Additional observations from a re-analysis of the deposited data

Results flagged for a closer look

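In 7 of 75 combinations of a described Hox gene and a time, 1 library stood apart from the other 5 by a gap past Dixon's 95% limit for 6 values, which chance passes in about 1 group in 20. The library labelled female day 7 replicate 3 accounted for 3 of them. It had 40.4 CPM of Hoxa9 (others 19.4 to 27.1), 9.12 CPM of Hoxd3 (others 1.89 to 3.48) and 28.6 CPM of Hoxd4 (others 9.08 to 13.4), beside the lowest fibre marker sum of that day, 21060 CPM. Female day 11 replicate 3, whose sex-linked genes go against its label, had 40.9 CPM of Hoxa9 (others 16.3 to 25.3) and 5.37 CPM of Hoxb8 (others 1.69 to 2.81). Male day 7 replicate 1 had 30.2 CPM of Hoxa7 (others 10.4 to 16.7), and male day 7 replicate 2 had 1.45 CPM of Hoxb8, below the others at 1.93 to 2.13.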

How the results depend on the processing

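Library size alone moved the counts of calls most, to 16 higher and 2 lower at day 4, 25 and 2 at day 7, 31 in all with 29 and 2 at day 11, and 25 and 3 at day 15. It turned 25 called values to the other sign. At day 4 these were Hoxa2 (0.52), Hoxa5 (0.57), Hoxa7 (0.059), Hoxa9 (0.66), Hoxa11 (0.30), Hoxb5 (0.51), Hoxb6 (0.22), Hoxb7 (0.37), Hoxb9 (0.58), Hoxc4 (0.49), Hoxc6 (0.88), Hoxc8 (0.074), Hoxc11 (0.64) and Hoxd9 (0.62). At day 7 they were Hoxa10 (0.17), Hoxa11 (0.48), Hoxb7 (0.37), Hoxc9 (0.33) and Hoxc11 (0.080), at day 11 Hoxa10 (0.36), Hoxa11 (0.68) and Hoxc9 (0.34), and at day 15 Hoxa10 (0.26), Hoxa11 (0.43) and Hoxc9 (0.21). Rises at day 4 were 1 with a filter of CPM above 1 and 1 with halved counts. DESeq2 called 1 gene between days 11 and 7. Thinned to the smallest library, which leaves fewer counts, 12 genes were called at day 4 with 0 higher, and 12 at day 7 with 6 higher. Without 3 libraries together 12 were called at day 7 with 6 higher, and 1 between days 11 and 7.

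Leaving out 1 library gave 15 to 21 calls at day 4 (1 to 2 higher, 14 to 19 lower), 11 to 20 at day 7 (5 to 13, 6 to 7), 14 to 22 at day 11 (9 to 16, 5 to 6) and 17 to 22 at day 15 (11 to 16, 6 to 6). The ranges were 14 to 19 for day 7 against day 4, 0 to 1 for day 11 against day 7, 22 to 27 for day 15 against day 4 (21 to 24 higher, 1 to 3 lower), and 0 to 0 for day 15 against day 11 and both sex comparisons. At day 7 the lowest count came without female day 7 replicate 3. Of 79 called values for single genes, RLE size factors ended 2, DESeq2 ended 2 and a fit of the compared groups ended 9 of 78, and none of these turned the sign. The joint sex test was not run in that last fit, which holds only part of the groups.

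With the replicate number as a block, 20, 19, 19 and 21 genes were called at days 4, 7, 11 and 15, 18 for day 7 against day 4 and 24 for day 15 against day 4. The labels do not say that the numbers pair samples, and 10 of 30 libraries were closest to one with their own number, with a mean correlation of 0.0082 for the same number. Depth limits the rare genes: at day 15 Hoxa13 rested on 15 counts.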
